A study of Mus musculus with 4 samples.

Results

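The genes described here build, split, fuse, fold, clear and move mitochondria. They are 42 genes named in a list of mitochondrial fusion, fission, cristae and protease genes, and all 42 were found by symbol among the 12693 genes of the expression table. The list was made by function. RNA-seq was compared between 2 wild-type samples and 2 *Foxq1* conditional knockout (cKO) samples of C57BL/6 mouse embryos at E18. The wild-type genotype was given as WT and the cKO genotype as FOXQ1fl/fl;Tie2-Cre, and per the study's methods the controls were littermates without Cre. The *Tie2* promoter drives Cre in endothelium and also in part of the blood lineage. The study describes brain endothelial cells (ECs) sorted from cortex on CD31, whereas the sample labels name only brain as the tissue. How many embryos went into each sample was not stated, so the p-values measure the spread between these samples only.

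Mitochondria form a network whose shape is set by opposing membrane events. Mitofusins join outer membranes and OPA1 joins inner membranes, while the GTPase DRP1 is recruited by receptors on the outer membrane and divides the organelle. The inner membrane is folded into cristae, held at their necks by the MICOS complex, and proteases of the inner membrane cut OPA1 and clear damaged proteins. The study asked how loss of *Foxq1*, a forkhead transcription factor of brain endothelium, alters mitochondria in these cells, and the comparison below asks which of these 42 transcripts differed between the genotypes.

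Values are normalized counts, which are reads per gene divided by a size factor for each sample. Depth was between 15827166 and 21466436 reads on listed genes per sample. *Foxq1* itself had 353 and 297 normalized counts in wild-type 1 and 2, and 5.44 and 32.6 in cKO 1 and 2, a mean in cKO samples of 5.84% of that in wild-type samples. Wild-type 1 stood apart from the other 3 samples on the first principal component, which held 47.2% of the variance. All 10 endothelial markers were listed, with summed levels of 258535 to 281483 in wild-type samples and 232869 to 252918 in cKO samples, and 9 of the 10 were lower on average in cKO samples. Markers of other cells were listed too. The 8 microglia and macrophage markers summed to 9612 and 10841 in wild-type samples and to 6956 and 7512 in cKO samples. Of these, 3 were higher and 5 lower on average in cKO samples. The 9 listed of 10 neural markers summed to 16335 and 17130 against 14181 and 15549, with 3 higher and 6 lower on average in cKO samples. Such sums rest mainly on the most abundant markers. The 6 listed of 8 pericyte and smooth muscle markers, at 142236 to 154457, and the 4 listed of 6 red cell markers, at 11068 to 14876, overlapped between the genotypes. No gene in the expression table was at 0 in any sample, so values above 0 do not by themselves show that a cell type was present. The part of these cell types in the results below was not tested. In such bulk samples, fewer cells of a type and less RNA per cell cannot be told apart.

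Differences are given as log2 fold changes, cKO against wild-type, on the scale of log2(normalized count + 1), and were tested with limma across the 12472 genes with a mean of at least 10 normalized counts. All 42 members passed this filter. Of them, 23 were higher and 19 were lower on average in cKO samples, without regard to any test. At an unadjusted p under 0.05, 1 member (2.38%) was called, *Dnajc11*, against 5.22% of all genes tested. No member was called higher, where 2.17% of all genes were, and this 1 member was called lower, where 3.05% of all genes were. After Benjamini-Hochberg adjustment 0 members were called, as were 0% of all genes in limma, and the smallest adjusted p of a member was 0.857. edgeR and DESeq2 were run on the reads recovered from the deposited values, and each called 1 member (2.38%), again *Dnajc11*, before adjustment. Of all genes, edgeR called 4.98% and DESeq2 6.49% at that step. After adjustment both called 0 members, while edgeR called 0 of 12693 genes and DESeq2 called 62 (0.488%). When wild-type 2 was left out, limma called 4 members (9.52%) before adjustment and 12.6% of all genes. With all 4 samples, limma, edgeR and DESeq2 called the same member, so these were not separate calls. Counts this small do not set the members apart from all genes.

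The groups did not overlap, meaning both cKO samples lay on the same side of both wild-type samples, for 15 members. In 10 of these (23.8%) the cKO samples were higher, against 18% of all genes (2239 of 12472). In 5 (11.9%) they were lower, against 18% of all genes as well (2249 of 12472). With 2 samples against 2, an exact two-sided permutation test cannot go below 0.333 for any single gene. The median log2 fold change of the members was 0.07, and that of all genes was 0.01. The median size of the difference, regardless of sign, was 0.30 for members and 0.37 for all genes, and the median SE was 0.36 and 0.50. Wild-type 1 was the lowest of the 4 samples for 18 members, and cKO 1 was the highest for 16 and the lowest for 14. Of the 12472 genes tested, wild-type 1 was the lowest for 3689, and cKO 1 was the highest for 3059 and the lowest for 3077.

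**Figure D1:**
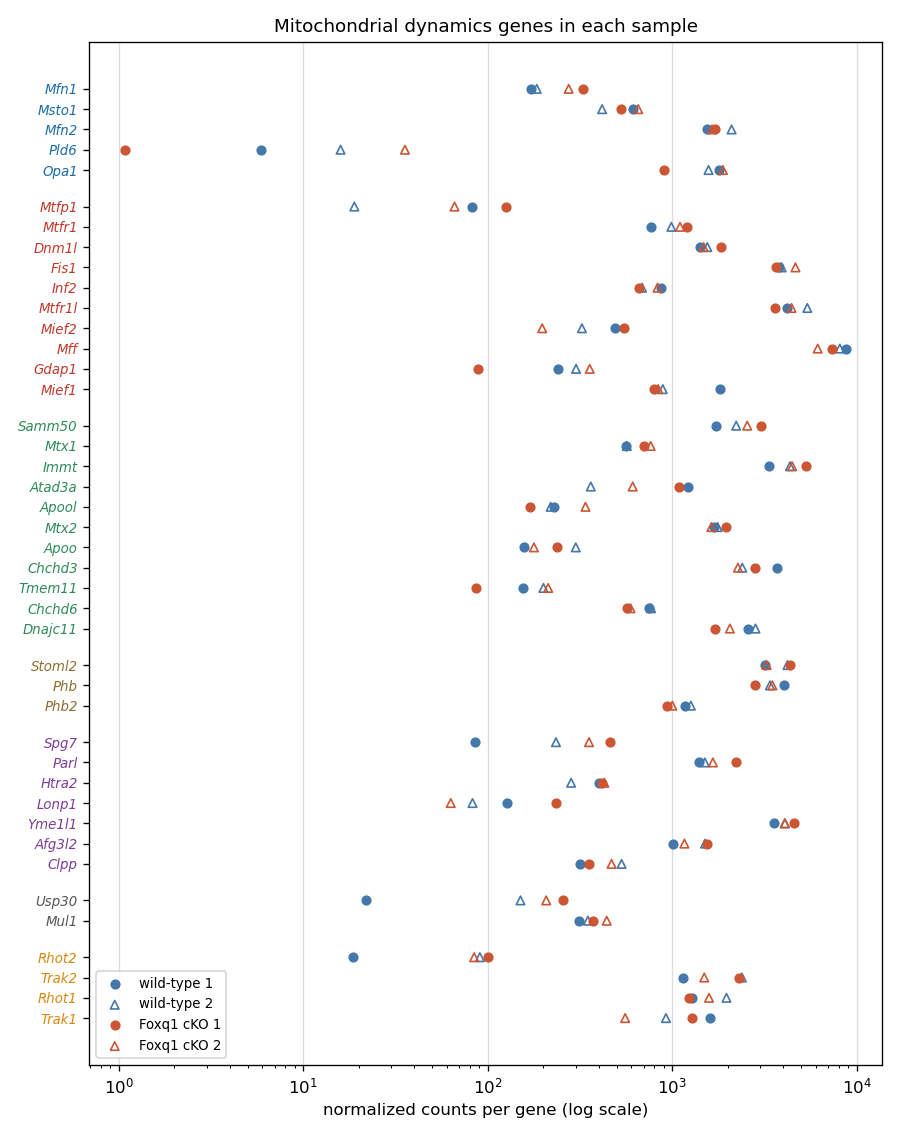
Normalized counts (log scale) of the 42 members in each sample, 1 row per gene, grouped and coloured by role in the order fusion, fission, cristae, prohibitin, protease, ubiquitin control and transport. Filled circles are samples numbered 1 and open triangles samples numbered 2, wild-type in blue and cKO in red. The 4 points of most genes lie close together, and *Pld6*, *Usp30* and *Mtfp1* spread most widely.

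Levels between genes were compared as normalized counts per kilobase of annotated exon, over the 4 samples. The length was that of all annotated exons joined, and the order was checked with the longest transcript instead. *Fis1*, which encodes a small outer membrane adaptor of fission, had the highest level by either length, 2337 per kilobase of joined exons. *Stoml2* and *Phb* followed at 1241 and 1222, but by the longest transcript *Mff* and *Mtfr1l* came before them, at 3634 and 2174 against 2001 and 1905. By either length *Pld6* was lowest, at 8.33 on joined exons, followed by *Rhot2* at 16.5, *Usp30* at 26.2 and *Lonp1* at 29.0. Other genes share 41.4%, 47.3% and 30.9% of the 50-base stretches of the longest *Rhot2*, *Phb* and *Stoml2* transcripts. The levels of these genes are therefore uncertain. The mitofusins were unequal, with *Mfn2* at 336 per kilobase of joined exons and *Mfn1* at 39.2, and at 402 and 52.5 by the longest transcript. *Mff* stood above the other DRP1 receptors *Mief1* and *Mief2* by either length, and the order of these 2 changed with the length used. The standard error followed the level, to which the limma fit ties it in part by drawing each gene's spread toward a trend with level. Over all genes, the median SE was 0.31 at a mean of at least 500 normalized counts and 0.79 below that mean. The 27 members with a mean of at least 500 normalized counts had a median SE of 0.27 and no log2 fold change beyond 0.64 in size, and the 15 members below that mean had a median SE of 0.68. The 4 members with log2 fold changes above 1, *Usp30*, *Spg7*, *Mtfp1* and *Rhot2*, all belonged to the weakly expressed 15.

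**Figure D2:**
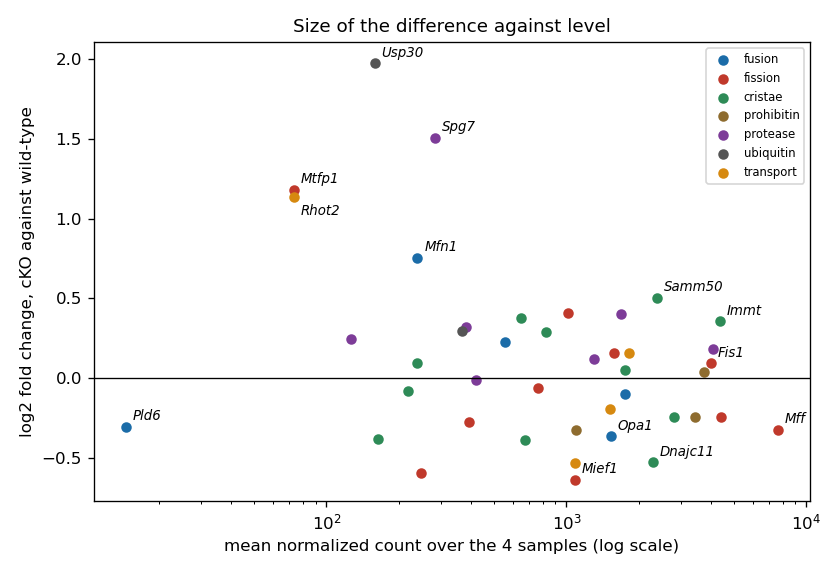
Log2 fold change (cKO against wild-type, y axis) of each member against its mean normalized count over the 4 samples (x axis, log scale), coloured by role. The members beyond 1 on the y axis all have means under 500, and members with higher means lie between -0.64 and 0.50.

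Of the 5 fusion genes, 2 were higher and 3 lower on average in cKO samples, none was called, and their median log2 fold change was -0.10. *Opa1*, the dynamin-like GTPase that fuses inner membranes and keeps cristae tight, had 1791 and 1572 normalized counts in wild-type samples and 901 and 1882 in cKO samples. Its cKO samples held both the lowest and the highest value. The log2 fold change was -0.37 (SE 0.39, adjusted p = 0.893 in limma), with a 95% interval from -1.31 to 0.58. It was -0.90 without cKO 2 and 0.17 without cKO 1. These are total transcript values, which give neither splice forms nor the cut forms of the protein. The paper examined OPA1 protein separately, by immunoblot of wild-type and cKO primary brain ECs.

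*Mfn2*, the mitofusin that also tethers mitochondria to the endoplasmic reticulum, had 1539 and 2096 normalized counts in wild-type samples and 1709 and 1641 in cKO samples. Both cKO values lay between the wild-type values, and the log2 fold change was -0.10 (SE 0.25, adjusted p = 0.960, 95% interval -0.72 to 0.52). *Mfn1*, the other mitofusin of the outer membrane, had 171 and 184 normalized counts in wild-type samples and 328 and 275 in cKO samples. Here the groups did not overlap, and both cKO samples were higher. Its log2 fold change was 0.75 (SE 0.54, adjusted p = 0.865, 95% interval -0.57 to 2.08), and it stayed between 0.63 and 0.88 when each sample was left out in turn. The number of *Mfn1* counts per *Mfn2* count was 0.111 and 0.0880 in wild-type samples and 0.192 and 0.167 in cKO samples. This pairing was chosen after the values were seen and was not tested.

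The remaining fusion genes were not called. *Msto1*, a cytosolic protein linked to fusion, ranged from 417 to 654 normalized counts with a log2 fold change of 0.22 (SE 0.40). Over 19.2% of its annotated exon length it overlaps *Gon4l* on the opposite strand, and the strand setting of the counting was not stated. *Pld6*, a mitochondrial phospholipase, rested on 7 and 16 reads in wild-type samples and on 1 and 35 in cKO samples, and its log2 fold change of -0.31 (SE 1.62) turned positive in 3 alternative fits.

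The 10 fission genes were split, 4 higher and 6 lower, with a median log2 fold change of -0.15 and none called. *Dnm1l*, which encodes DRP1, had 1414 and 1548 normalized counts in wild-type samples and 1847 and 1479 in cKO samples. The groups overlapped, and the log2 fold change was 0.16 (SE 0.25, adjusted p = 0.926, 95% interval -0.44 to 0.76). *Mief1*, which encodes the DRP1 receptor MiD51, had 1823 and 888 normalized counts in wild-type samples and 798 and 839 in cKO samples. Both cKO samples were below both wild-type samples, but wild-type 2 was close to them and only wild-type 1 was far above. This gave a log2 fold change of -0.64 (SE 0.40, adjusted p = 0.857, 95% interval -1.62 to 0.35). It was -0.12 without wild-type 1 and -1.15 without wild-type 2, so its size rested on wild-type 1.

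Of the other DRP1 receptors, *Mff* was also lower in both cKO samples. Its values were between 6136 and 7372 normalized counts in cKO samples and between 8093 and 8734 in wild-type samples, with a log2 fold change of -0.32 (SE 0.16, adjusted p = 0.857). *Mief2*, which encodes MiD49, ranged from 197 to 549.8 and *Fis1* from 3648 to 4651 normalized counts, with log2 fold changes of -0.28 (SE 0.63) and 0.09 (SE 0.19) and overlapping groups. Thus 3 of the 4 receptor genes had lower averages in cKO samples, and none of the 4 passed the test. The number of *Dnm1l* counts per *Mff* count was 0.162 and 0.191 in wild-type samples and 0.251 and 0.241 in cKO samples, again a pairing chosen after the values were seen. Of 14 gene pairs examined in this way, the ratios did not overlap between the genotypes in 11. They overlapped for *Opa1* over *Yme1l1*, *Mief1* over *Mief2* and *Phb* over *Phb2*. The pairs were chosen after the values were seen, and several share *Immt*, *Samm50* or *Dnajc11*, so they are not independent. Many set a higher against a lower member, which favours separation. No share was computed for other pairs of genes, so the count of 11 has no background. The share of single genes without overlap, 18% in each direction, is a different measure.

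*Mtfr1*, a regulator of fission, ranged from 763 to 989 normalized counts in wild-type samples and from 1102 to 1207 in cKO samples, a log2 fold change of 0.41 (SE 0.30) without overlap. Its relative *Mtfr1l* differed in the other direction, from 3618 to 5392 normalized counts and with a log2 fold change of -0.24 (SE 0.21) and overlap. *Gdap1*, a fission factor of the outer membrane, ranged from 88.2 to 357 normalized counts, and both extremes were cKO samples (log2 fold change -0.60, SE 0.80). *Mtfp1*, an inner membrane protein of fission, ranged from 18.9 to 126 normalized counts, and its log2 fold change of 1.18 (SE 1.04) came with overlapping groups. That difference was 2.21 without wild-type 1 and 0.15 without wild-type 2. *Inf2*, a formin that builds actin at fission sites, ranged from 656 to 869 normalized counts with a log2 fold change of -0.06 (SE 0.34).

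**Figure D3:**
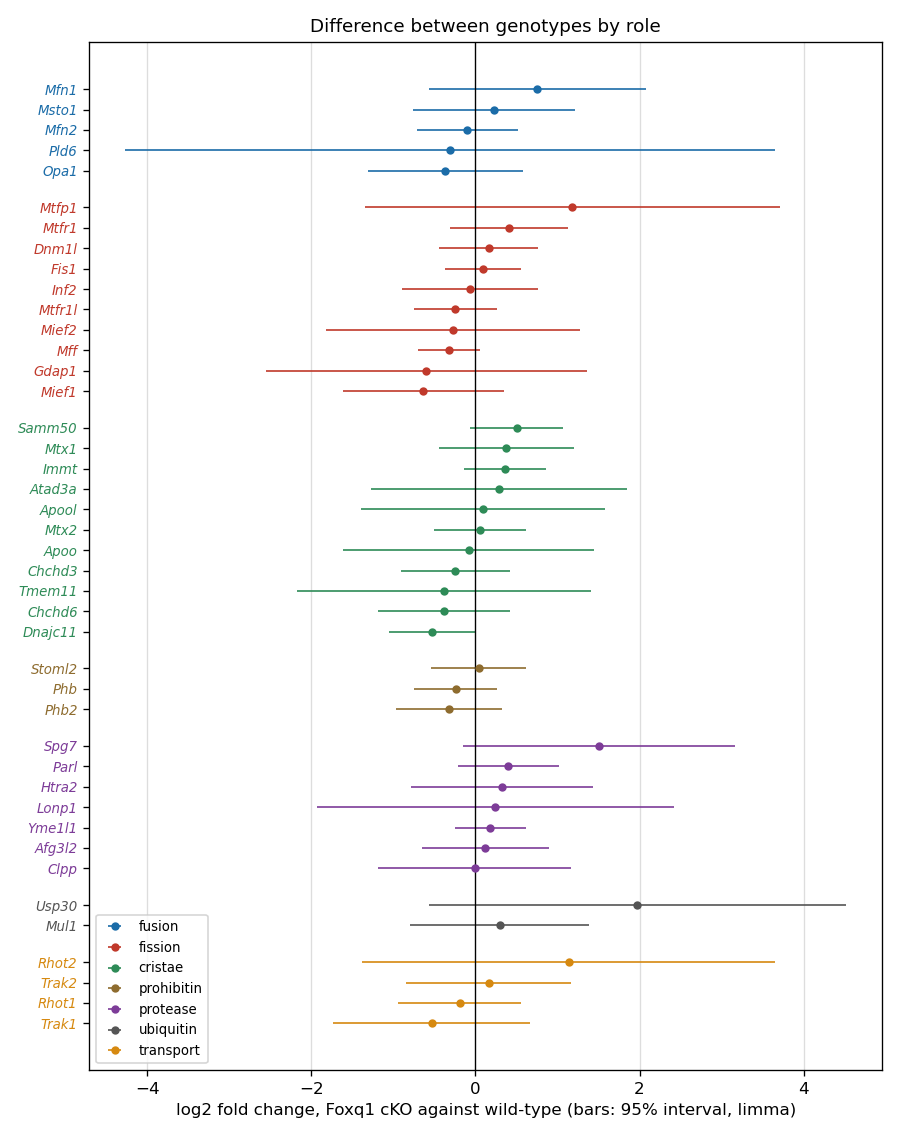
Log2 fold change of each member (points) with its 95% interval from limma (bars), cKO against wild-type, by role. Every interval but that of *Dnajc11*, which ends just below 0, includes 0, and the intervals of *Pld6*, *Usp30*, *Mtfp1* and *Rhot2* are the widest.

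The 11 genes of cristae and of the bridge between the membranes were 6 higher and 5 lower, with a median log2 fold change of 0.05. This group held the only member called before adjustment. *Dnajc11*, a J-domain protein found with MICOS and the sorting machinery of the outer membrane, had 2568 and 2824 normalized counts in wild-type samples and 1699 and 2053 in cKO samples. Both cKO samples were lower, at 69.6% of the wild-type level on average. With an unadjusted limma p of 0.0493, the difference was -0.53 on the log2 scale (SE 0.22, adjusted p = 0.857, 95% interval -1.05 to -0.0022). The unadjusted call was narrow: the p lay between 0.0478 and 0.149 over the alternative fits of all 4 samples, under 0.05 in 5 of 10, and between 0.0716 and 0.228 when a sample was left out. The direction was the same in every one of these fits.

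*Samm50*, the outer membrane channel that sorts beta-barrel proteins and anchors MICOS, differed the other way. It had 1731 and 2220.2 normalized counts in wild-type samples and 3025 and 2547 in cKO samples, both cKO values being higher. The difference was 0.50 on the log2 scale (SE 0.23, adjusted p = 0.857, 95% interval -0.06 to 1.07). It was 0.32 without wild-type 1, and 0.68 without wild-type 2, where the unadjusted limma p was 0.0408. *Immt*, which encodes the MICOS core subunit mitofilin, had 3339 and 4345 normalized counts in wild-type samples and 5319 and 4464 in cKO samples. The groups did not overlap, although wild-type 2 and cKO 2 were close, and the log2 fold change was 0.36 (SE 0.20, adjusted p = 0.857, 95% interval -0.14 to 0.85). As a ratio, this interval ran from 0.905 to 1.81 times the wild-type level. The difference was 0.17 without wild-type 1 and 0.55 without wild-type 2. *Immt* shares 7.24% of the 50-base stretches of its longest transcript with other genes, chiefly *Gm44771* on the opposite strand.

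The other MICOS subunits among the members differed in direction. *Chchd6* was lower in both cKO samples, at 567 and 594 against 751 and 768 normalized counts, with a log2 fold change of -0.39 (SE 0.33). *Chchd3*, *Apoo* and *Apool* overlapped between the groups, with log2 fold changes of -0.24 (SE 0.27), -0.08 (SE 0.63) and 0.10 (SE 0.61). For *Apoo*, 45.9% of the 50-base stretches of its longest transcript also occur in other genes, nearly all in the pseudogene *Apoo-ps*, so its count is uncertain. Counts of *Samm50* per count of *Dnajc11* were 0.674 and 0.786 in wild-type samples and 1.78 and 1.24 in cKO samples, a pairing chosen after the values were seen and not tested.

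*Mtx1*, a metaxin of the outer membrane sorting machinery, had 559.5 to 567 normalized counts in wild-type samples and 702 to 764 in cKO samples (log2 fold change 0.38, SE 0.34). It overlaps *Thbs3* and *Gm43737* on the opposite strand over 30.1% of its exon length. Its partner *Mtx2* overlapped between the groups at 1629 to 1966 normalized counts (log2 fold change 0.05, SE 0.23). *Tmem11*, a MICOS-associated inner membrane protein, ranged from 86.0 to 213 normalized counts, both extremes in cKO samples (log2 fold change -0.38, SE 0.73). *Atad3a*, an ATPase of the inner membrane, ranged from 362 to 1224 normalized counts, both extremes in wild-type samples (log2 fold change 0.29, SE 0.64). Of its 50-base stretches, 11.6% also occur in *Gm4740*.

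**Figure D4:**
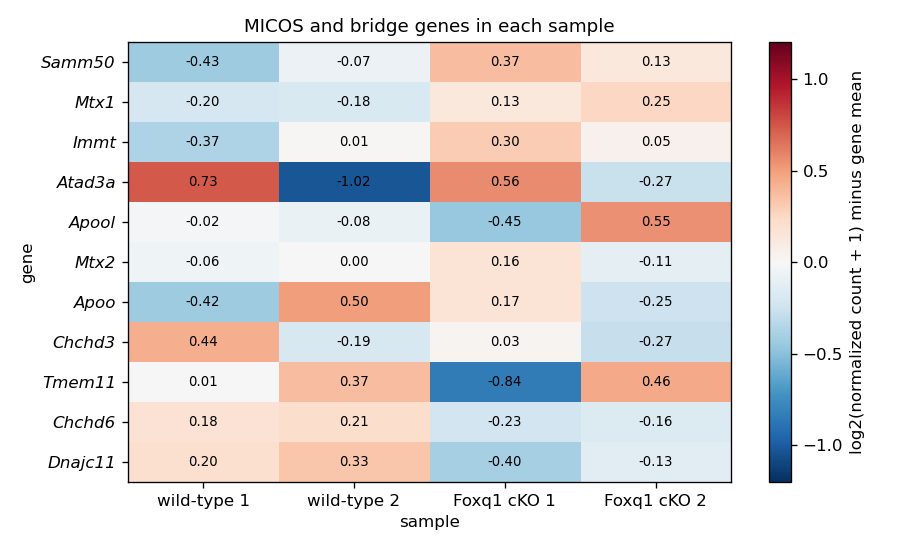
Deviation of each cristae and bridge gene in each sample from its own mean over the 4 samples, on the scale of log2(normalized count + 1), red above and blue below. *Samm50* and *Mtx1* are negative in both wild-type samples and positive in both cKO samples, *Chchd6* and *Dnajc11* show the opposite, and *Immt* in wild-type 2 is at 0.01.

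The prohibitin scaffold, a ring of the inner membrane that organises lipids and proteases, gave 1 higher and 2 lower averages and no call. *Phb2* was lower in both cKO samples, at 938 and 1001 normalized counts against 1166 and 1261, with a log2 fold change of -0.32 (SE 0.27, adjusted p = 0.876). Its partner *Phb* ranged from 2800.0 to 4037 normalized counts with overlapping groups and a log2 fold change of -0.24 (SE 0.21). *Stoml2*, a relative that binds prohibitins, ranged from 3184 to 4357 with a log2 fold change of 0.04 (SE 0.24). Other genes share 47.3% of the 50-base stretches of *Phb* and 30.9% of those of *Stoml2*. Both counts are therefore uncertain, since reads from such stretches may have been gained or lost.

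Of the 7 protease genes, 6 were higher and 1 lower on average in cKO samples, with a median log2 fold change of 0.24, and none was called. Wild-type 1 was the lowest sample for 5 of the 7 and cKO 1 the highest for 5, against 3689 and 3059 of the 12472 genes tested. *Yme1l1*, the inner membrane protease that cuts OPA1 constitutively, had 3543 and 4083 normalized counts in wild-type samples and 4579 and 4066 in cKO samples. The groups overlapped, and the log2 fold change was 0.18 (SE 0.18, adjusted p = 0.893), with a 95% interval from -0.25 to 0.62 that was among the narrower ones here.

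*Spg7*, which encodes the paraplegin subunit of the m-AAA protease, showed a larger difference. It had 85.1 and 234 normalized counts in wild-type samples and 459 and 354 in cKO samples. Both cKO samples were higher, and wild-type 2 was above wild-type 1 by 1.45 on the log2 scale. For the genotypes the log2 fold change was 1.51 (SE 0.68, adjusted p = 0.857, 95% interval -0.16 to 3.17). It was 0.78 without wild-type 1 and 2.23 without wild-type 2, where the unadjusted limma p was 0.0115. Its m-AAA partner *Afg3l2* ranged from 1008 to 1535 normalized counts with overlapping groups and a log2 fold change of 0.12 (SE 0.32). Counts of *Spg7* per count of *Afg3l2* were 0.0844 and 0.156 in wild-type samples and 0.299 and 0.304 in cKO samples, and this pairing too was chosen after the values were seen.

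*Parl*, the rhomboid protease that cuts PINK1 and PGAM5, was higher in both cKO samples, with 1402 and 1501 normalized counts in wild-type samples and 2210.0 and 1660.2 in cKO samples (log2 fold change 0.40, SE 0.25, adjusted p = 0.857). Of its 50-base stretches, 10.3% also occur in *Gm13181*. *Htra2*, a serine protease of the intermembrane space, was higher by 0.32 (SE 0.46) on the log2 scale without overlap, at 283 to 401 against 416 to 428 normalized counts. It overlaps *Loxl3* and *Aup1* on the opposite strand over 43.7% of its exon length. The matrix proteases overlapped between the groups: *Lonp1* ranged from 63.1 to 234 normalized counts (log2 fold change 0.24, SE 0.89) and *Clpp* from 318 to 531 (log2 fold change -0.01, SE 0.48).

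Both genes of ubiquitin control at the outer membrane were higher in both cKO samples, and neither was called. *Usp30*, a deubiquitinase that opposes mitophagy, had 21.9 and 151 normalized counts in wild-type samples and 256 and 208 in cKO samples. It gave the largest log2 fold change of the 42 members, 1.97 (SE 1.04, adjusted p = 0.857, 95% interval -0.57 to 4.52). The wild-type samples differed by 2.73 on the log2 scale, more than the groups did. It was 0.61 without wild-type 1 and 3.34 without wild-type 2, where the unadjusted limma p was 0.00627. It shares 6.19% of its 50-base stretches with *Alkbh2*, which lies on the opposite strand. *Mul1*, a ubiquitin ligase of the outer membrane, had 312 to 349 normalized counts in wild-type samples and 372 to 442 in cKO samples (log2 fold change 0.30, SE 0.45).

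The promoters of *Usp30*, *Spg7* and *Mfn1* are shown because these had the largest differences among members whose groups did not overlap. The sequences are from RefSeq on GRCm38.p6, plus strand, and run over the 250 bases before the start of each gene. *Usp30* is at chr5:114100083-114100332, *Spg7* at chr8:123065258-123065507 and *Mfn1* at chr3:32529232-32529481. Capitals mark GTTTC, the letters that the study ties to FOXQ1 binding, or its reverse complement GAAAC.

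Usp30: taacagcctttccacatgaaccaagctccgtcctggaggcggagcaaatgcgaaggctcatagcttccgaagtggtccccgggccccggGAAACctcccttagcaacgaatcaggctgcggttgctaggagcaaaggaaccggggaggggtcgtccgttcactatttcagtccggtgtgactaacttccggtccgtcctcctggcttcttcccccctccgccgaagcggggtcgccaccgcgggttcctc
Spg7: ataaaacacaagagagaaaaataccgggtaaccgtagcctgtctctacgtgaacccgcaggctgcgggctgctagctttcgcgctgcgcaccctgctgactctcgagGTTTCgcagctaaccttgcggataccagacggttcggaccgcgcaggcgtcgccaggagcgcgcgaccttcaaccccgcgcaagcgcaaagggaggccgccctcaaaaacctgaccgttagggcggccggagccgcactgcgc
Mfn1: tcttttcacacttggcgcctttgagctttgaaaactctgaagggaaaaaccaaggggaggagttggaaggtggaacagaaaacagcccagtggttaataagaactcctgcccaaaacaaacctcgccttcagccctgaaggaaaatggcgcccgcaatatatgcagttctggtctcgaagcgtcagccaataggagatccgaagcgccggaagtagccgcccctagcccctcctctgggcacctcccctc

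The match lies 161 bases before the start of *Usp30*, on the minus strand, and 143 bases before that of *Spg7*, on the plus strand, while the *Mfn1* window holds none. The search covered 300 bases, 250 before to 50 after the start, on both strands. It found GTTTC in 31.25% of the 48 windows of the 35 members with an entry, and in 45.0% of all 32851 windows. The forkhead core TGTTTA, which shares GTTT with it, was in 3 member windows (6.25%), those of *Apool*, *Mtfr1l* and *Opa1*, and in 13.4% of all windows. *Afg3l2*, *Atad3a*, *Dnajc11*, *Gdap1*, *Htra2*, *Msto1* and *Mtfr1* had no entry. A match describes letters in a window and not a bound site.

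The 4 genes that couple mitochondria to microtubule motors were 2 higher and 2 lower, with a median log2 fold change of -0.02, overlapping groups in all 4 and no call. The Miro GTPases anchor the motors to the outer membrane. *Rhot1* ranged from 1225 to 1966 normalized counts (log2 fold change -0.19, SE 0.31), and *Rhot2* from 18.5 to 100.2 (log2 fold change 1.13, SE 1.03), where wild-type 1 was far below the other 3 samples. Without wild-type 1 the *Rhot2* difference was 0.02. *Rhot2* also shares 41.4% of its 50-base stretches with other genes, chiefly *Gm20683*. The adaptors *Trak1* and *Trak2* ranged from 555 to 1596 and from 1148 to 2383 normalized counts, with log2 fold changes of -0.53 (SE 0.49) and 0.16 (SE 0.41).

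Other genes of mitochondrial shape, import and transport were listed by function beside the 42, and 34 of 37 were found in the table. Of these, 16 were higher and 18 lower on average in cKO samples, and 2 were called lower at an unadjusted p under 0.05 in limma, where 3.05% of all genes were, and none after adjustment. The groups did not overlap in 10 higher (29.4%) and 4 lower (11.8%) genes, against 18% of all genes in each direction. *Kif5b*, the kinesin heavy chain to which TRAK adaptors couple mitochondria, had 9612 and 9289 normalized counts in wild-type samples and 6789 and 6475 in cKO samples. Its cKO samples were lower and each pair was tight, with a log2 fold change of -0.51 (SE 0.13, adjusted p = 0.857) and an unadjusted limma p of 0.00856. *Oma1*, the stress-activated protease that cuts OPA1, had 441 and 593 normalized counts in wild-type samples and 124 and 179 in cKO samples. This was a log2 fold change of -1.77 (SE 0.53, adjusted p = 0.857) with an unadjusted limma p of 0.0158. The paper also reports lower *Oma1* by quantitative PCR in knockout primary brain ECs, and FOXQ1 and H3K4me3 signal at its promoter. The averages of 6 of the 7 protease members lay in the other direction, but none of these was called. Those of *Afg3l2* and *Lonp1* changed sign when single samples were left out. *Yme1l1*, which cuts the same substrate, overlapped between the groups, with a log2 fold change of 0.18 (SE 0.18).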

How the data were processed

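RNA-seq was examined in 2 wild-type and 2 *Foxq1* cKO samples, grouped by their labels. The authors deposited a normalized signal per gene, and every value was a whole number of reads (tolerance 0.001 reads) divided by a size factor per sample, between 0.919 and 1.19. The submitters' processing notes name Bowtie2 2.2.3, TopHat2 2.0.12, HTSeq 0.6.0 and mm9, without their roles. Libraries are described in the labels as made from total RNA and in the paper as Smart-seq2. Repeated lines of the table were reduced to 12693 symbols, and no listed gene had fewer than 21 reads in all.

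The main test was limma 3.58.1 in R 4.3.3, with lmFit and a trended eBayes, on log2(value + 1) of genes whose mean was 10 or more, with Benjamini-Hochberg adjustment. On the recovered reads, edgeR 4.0.16 and DESeq2 1.42.0 were alternatives. Other alternatives were pseudocounts of 0.1 and 5, no filter and a minimum mean of 50, quantile and TMM scaling, no trend, a replicate block and each sample left out. The members, lists and tests were chosen with earlier results of these data known. Values in every sample are given for members with an unadjusted p under 0.05, for those without overlap and a log2 fold change of at least 0.5 in size, and for *Opa1*, *Mfn1*, *Mfn2*, *Dnm1l*, *Immt* and *Yme1l1*. Exon lengths and shared 50-base stretches were computed from GENCODE M21 on GRCm38, a later build than that of the notes, so apart from the RefSeq promoter windows no coordinates are given. Counting intervals would cover counting error only.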

Additional observations from a re-analysis of the deposited data

How the results depend on the processing

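With 2 samples a group and wild-type 1 apart from the rest, single members could be estimated only coarsely, and weakly expressed ones least. Over 10 alternatives with all 4 samples, 419 fits of single members changed sign 3 times, in each case for *Pld6*, at 0.0574 with a pseudocount of 5, 0.75 in edgeR and 0.75 in DESeq2. *Pld6* could not be tested at a minimum mean of 50. The number of members at an unadjusted p under 0.05 fell from 1 to 0 with a pseudocount of 0.1, a minimum mean of 50, quantile normalization or no trend, since *Dnajc11* then had an unadjusted limma p between 0.0501 and 0.149. The replicate numbers do not say which samples belong together, and the deviations of samples with the same number correlated at r = 0.0325 over 12472 genes. With the replicate block, 0 members were under 0.05, and *Dnajc11* was at an unadjusted limma p of 0.0526. The number of related genes under 0.05 moved from 2 to 4 with quantile normalization, run after seeing the data as all alternatives for that list were, and to 1 with no trend. No alternative gave a member an adjusted p under 0.05. Members without overlap numbered 15 with TMM scaling and 16 with quantile normalization.

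With each sample left out in turn, a lone sample was assumed to vary like the others. The number of members under 0.05 then lay between 0 and 4, reaching 4 without wild-type 2 (*Usp30*, *Spg7*, *Mief1* and *Samm50*), where 12.6% of all genes were also under 0.05, that of related genes between 1 without cKO 2 and 5 without wild-type 2, and the members' median log2 fold change between 0.0235 without wild-type 1 and 0.15 without cKO 2. The log2 fold change took both signs for 22 members: *Opa1* from -0.90 to 0.17, *Mfn2* from -0.32 to 0.12, *Dnm1l* from -0.00043 to 0.32, *Fis1* from -0.0815 to 0.27, *Mief2* from -1.01 to 0.46, *Chchd3* from -0.56 to 0.0732, *Apool* from -0.41 to 0.60, *Apoo* from -0.54 to 0.38, *Mtx2* from -0.0833 to 0.19, *Stoml2* from -0.17 to 0.25, *Afg3l2* from -0.17 to 0.41, *Gdap1* from -1.60 to 0.41, *Pld6* from -2.37 to 1.76, *Msto1* from -0.0489 to 0.50, *Inf2* from -0.23 to 0.11, *Rhot1* from -0.50 to 0.11, *Trak1* from -1.13 to 0.0674, *Trak2* from -0.37 to 0.69, *Tmem11* from -1.03 to 0.27, *Clpp* from -0.38 to 0.36, *Lonp1* from -0.69 to 1.18 and *Atad3a* from -0.59 to 1.17. The other 20 members kept their sign.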
